A study of Mus musculus with 8 samples.

Results

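The 41 genes described here drive a cell through the G1/S transition and copy its DNA. They are the rows of a table of 27249 genes whose symbol equals a name on a list of replication factors, cyclins, kinases and their regulators. That rule matches names and uses no measured values, but the list was chosen with earlier results of these data known. Each of the 41 was found once, and each passed the filter on low values, as did 22575 genes in all. The table comes from RNA sequencing of vascular smooth muscle cells taken from mice as primary cultures, with 8 libraries in 4 groups of 2. THOC5 cells carried an overexpressed THOC5, which belongs to the THO complex of mRNA processing and export, and GFP cells, labelled wild type, overexpressed green fluorescent protein. The groups were THOC5 cells in osteogenic medium (THOC5 osteogenic), GFP cells in osteogenic medium (GFP osteogenic), THOC5 cells in growth medium (THOC5 growth) and GFP cells in growth medium (GFP growth). The series design names the osteogenic treatment as inorganic phosphate (Pi) for 6 days, which models arterial calcification. The age, sex and strain of the mice, the vector and its promoter are not named by the labels, and neither is whether replicates were separate cultures, so the spread between them may be technical.

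In G1, D cyclins with Cdk4 or Cdk6, and then E cyclins with Cdk2, phosphorylate the retinoblastoma family of pocket proteins, which releases E2F factors to transcribe S phase genes. Licensing factors load the Mcm2 to Mcm7 helicase at origins in G1. In S phase the helicase is activated, and polymerases, their sliding clamp and a supply of deoxynucleotides copy the DNA. Vascular smooth muscle cells divide rarely in the adult artery and re-enter the cycle after injury and in culture.

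Recovered reads per library numbered between 7058681 and 10581042, and 3 reads, the limit that a count of 0 allows, were worth 2.59 to 3.99 normalized counts (counting error only). Thoc5 had 1780.2 and 1937 normalized counts in THOC5 osteogenic, 649.5 and 615 in GFP osteogenic, 2155 and 1406 in THOC5 growth and 458 and 471 in GFP growth libraries. Both THOC5 libraries were above both GFP libraries in each medium. Of the variance over all tested genes, the first principal component held 32.6% and placed the GFP osteogenic libraries at 84.2 and 65.9, with the other 6 between -34.8 and -18.4. On the second component GFP growth replicate 2, the library with the fewest reads (7058681), stood at -71.8. All other libraries lay between -2.34 and 28.3 there. Acta2, the smooth muscle actin, had between 9489 and 25293 normalized counts, Myh11, the heavy chain of mature smooth muscle, had only between 32.9 and 158, and the fibroblast proteoglycan Dcn between 3774 and 16101. Of 6 macrophage markers, Ptprc and Adgre1, which define leukocytes and macrophages, had at most 1.88 and 1.79 in any library, while the other 4 were detected in every library, Cd68 at 111 to 246, Cd14 at 206 to 776, Lyz2 at 142 to 244 and Csf1r at 64.9 to 102.

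In GFP cells, 14 of the 41 genes rose in osteogenic against growth medium and 0 fell (limma, adjusted p under 0.05). The risen genes ranged from the helicase subunits Mcm2, Mcm3 and Mcm7 and their loader Cdt1 to the clamp Pcna, the primase Prim1, E2f1 and the cyclins Ccnd1, Ccne1 and Ccne2. The share that rose was 34.1% of the 41, against 10.3% of all genes tested, while 10.6% of all genes fell. All genes tested include those that only just reached 1 normalized count in 2 libraries, which have little power. The members were not compared with genes of like level. The median log2 change of the 41 was 0.43, against 0 over all genes. In THOC5 cells the same change of medium gave 0 calls, against 0.532% of all genes risen and 0.00886% fallen, with a median log2 change of 0.18. That median was -0.03 without THOC5 growth replicate 1, 0.35 without THOC5 growth replicate 2 and 0.09 without THOC5 osteogenic replicate 1. In osteogenic medium, THOC5 cells had 10 of the 41 lower and 1 higher than GFP cells, against 10.7% and 11.3% of all genes. The GFP osteogenic libraries enter both the GFP response and this last comparison, so the 2 results are not independent.

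The 14 calls in GFP cells rested on few libraries. With GFP osteogenic replicate 1 left out, only Mcm2 and Ccnd1 passed, and the adjusted p of the other 12 was between 0.068 and 0.306. The same 2 genes passed with GFP growth replicate 1 left out, where the other 12 had adjusted p between 0.0704 and 0.275. These 2 are 4.88% of the 41, against 3.68% of all genes risen without GFP osteogenic replicate 1 and 5.17% without GFP growth replicate 1, so the share of members called was then close to that of all genes. Without GFP growth replicate 2, 8 passed (19.5%, against 3.88% of all genes), and Mcm3, Cdt1, Cdc45, Orc6, Prim1 and E2f1 had adjusted p between 0.0519 and 0.204. Without GFP osteogenic replicate 2, 7 of the 14 passed (17.1%, against 7.05%), and Mcm10, Cdc45, Orc6, Rfc3, Prim1, Ccne1 and Ccne2 had adjusted p between 0.0606 and 0.137. Without either THOC5 osteogenic replicate, Mcm10, Cdc45, Rfc3 and E2f1 were lost, with adjusted p up to 0.0825. Without either THOC5 growth replicate, Mcm10 alone was lost, at 0.0509 and 0.0514. edgeR called the same number, 14 (34.1%, against 11.2% of all genes risen), and DESeq2 called 12 (29.3%, against 8.15%). Scaling by library totals, which moved the median of all genes by 0.13 (log2), gave 18 risen and 0 fallen, and over all genes 3721 risen and 1688 fallen in place of 2314 and 2384. In the authors' deposited table, 12 members rose and 0 fell, against 13% and 14.1% of the genes to which it gives an adjusted p, and the 12 were among the 14.

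**Figure D1:**
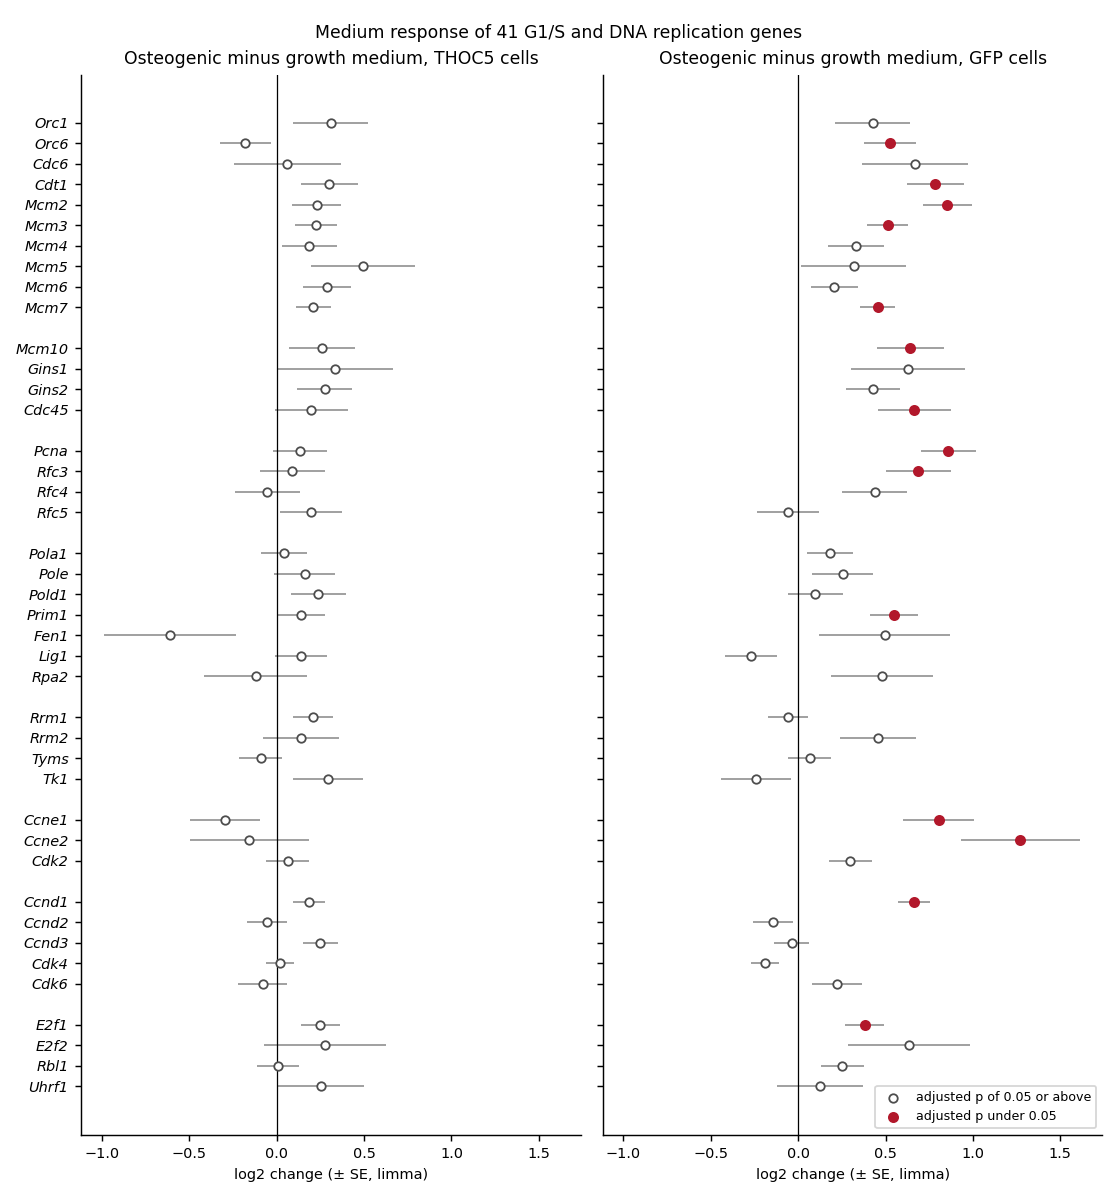
Log2 change with SE of each of the 41 genes in osteogenic against growth medium, in THOC5 cells (left) and GFP cells (right), grouped by role. Filled points passed limma at an adjusted p under 0.05: 0 in THOC5 cells and 14 in GFP cells, where each filled point lies right of 0.

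Separation of the libraries gave a wider view than the calls. In GFP cells both osteogenic libraries were above both growth libraries for 28 of the 41 genes and below both for 2, against 27.7% and 28.9% of all genes tested. In THOC5 cells the counts were 13 above and 1 below, against 15.1% and 19.7% of all genes, and 27 overlapped.

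E2F factors act through short promoter sites, and members that moved together are therefore shown with the DNA before their start. RefSeq (GRCm38.p6) gave a promoter window, 250 bases before to 50 after the start, for 34 of the 41 genes. Each was searched on both strands for 3 E2F-type core sequences, which are TTCCCGC as the first, then the related TTGGCGC and also the variant TTCGCGC. Overlapping matches were counted separately. At least 1 was found in 20 of the 34 members (58.8%), against 14.8% of the 13355 tested genes with a window and 9.2% of all 27025 genes with one. Among members that rose in GFP cells 5 of 12 (41.7%) held a match, and among the others 15 of 22 (68.2%). The share with a match was thus the lower one among members that rose, which is a description with no test. The 120 bases before the start are given 5′ to 3′ on the gene's strand for 5 genes, with matches in capitals. Prim1 and Rfc3 rose and held a match (chr10:128015095-128015214, + strand, and chr5:151651209-151651328, - strand). Orc1 held a match and did not pass the test (chr4:108579334-108579453, + strand). Mcm2 and Ccne1 rose, and these 7-letter runs were not in their windows (chr6:88898781-88898900 and chr7:38107491-38107610, - strand).
Prim1: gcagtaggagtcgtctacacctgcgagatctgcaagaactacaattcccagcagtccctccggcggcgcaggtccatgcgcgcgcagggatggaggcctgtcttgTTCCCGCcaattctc
Rfc3: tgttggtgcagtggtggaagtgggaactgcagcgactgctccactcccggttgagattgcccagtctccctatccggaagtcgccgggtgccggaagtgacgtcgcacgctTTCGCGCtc
Orc1: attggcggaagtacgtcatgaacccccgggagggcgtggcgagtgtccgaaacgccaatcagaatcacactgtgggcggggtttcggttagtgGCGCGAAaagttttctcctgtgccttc
Mcm2: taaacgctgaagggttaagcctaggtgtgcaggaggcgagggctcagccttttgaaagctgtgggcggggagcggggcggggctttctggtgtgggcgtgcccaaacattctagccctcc
Ccne1: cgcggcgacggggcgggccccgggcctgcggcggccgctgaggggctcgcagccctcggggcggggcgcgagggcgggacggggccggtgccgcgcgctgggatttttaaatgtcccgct

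The factors that recognise origins and load the helicase gave 5 of the 14 calls, from 10 members. Mcm2, a subunit of the Mcm2 to Mcm7 ring, had 535 and 473 normalized counts in THOC5 osteogenic, 931 and 784 in GFP osteogenic, 395 and 467 in THOC5 growth and 417 and 534 in GFP growth libraries. The GFP osteogenic pair stood above every other library, and the other 6 libraries lay between 395 and 535. Mcm2 rose 1.81-fold in GFP cells (log2 0.85 ± 0.14 SE, limma adjusted p = 0.00136), kept that call in each of the 15 alternatives, and stood at 0.23 ± 0.14 in THOC5 cells (adjusted p = 0.904). Cdt1, which brings the ring to the origin, had 212 and 176 normalized counts in THOC5 osteogenic, 337 and 249.5 in GFP osteogenic, 148 and 165 in THOC5 growth and 154 and 183 in GFP growth libraries. Its change was log2 0.78 ± 0.16 in GFP cells (limma adjusted p = 0.00598) and 0.30 ± 0.16 in THOC5 cells (adjusted p = 0.888). In both kinds of cell the osteogenic pair was above the growth pair for Cdt1 and Mcm2. In bulk RNA, more cells in late G1 or S phase and more RNA per cell cannot be told apart.

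Mcm7 and Mcm3, further subunits of the ring, had smaller fitted changes. Mcm7 had 457 and 473 normalized counts in THOC5 osteogenic, 616 and 559 in GFP osteogenic, 383 and 421 in THOC5 growth and 407 and 451 in GFP growth libraries. Mcm3 had 655 and 592 normalized counts in THOC5 osteogenic, 918 and 788 in GFP osteogenic, 490.4 and 579.7 in THOC5 growth and 555 and 641 in GFP growth libraries. Both had their GFP osteogenic pair above the other 6 libraries, and they rose in GFP cells by log2 0.45 ± 0.10 (limma adjusted p = 0.00765) and 0.51 ± 0.12 (adjusted p = 0.0102). Orc6, a subunit of the origin recognition complex, rose by 0.53 ± 0.15 (adjusted p = 0.0264). Orc1, Cdc6, Mcm4, Mcm5 and Mcm6 did not pass, with log2 changes in GFP cells between 0.21 for Mcm6 and 0.67 for Cdc6. So subunits of the same ring differed in whether they passed: Mcm2, Mcm3 and Mcm7 did, and Mcm4, Mcm5 and Mcm6 did not, a difference that was not itself tested. Mcm5, shown here for its spread after its values were seen, had 428 and 378 normalized counts in THOC5 osteogenic, 417 and 367 in GFP osteogenic, 203 and 402 in THOC5 growth and 232 and 424 in GFP growth libraries. In growth medium its replicate 2 was as high as the osteogenic libraries, and its replicate 1 was lower than all of them, in both kinds of cell.

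Of the 4 factors that activate the loaded helicase, Mcm10 and Cdc45 rose in GFP cells, and Gins1 and Gins2 did not pass. Mcm10 had 100 and 124 normalized counts in THOC5 osteogenic, 184 and 168 in GFP osteogenic, 86.9 and 99.3 in THOC5 growth and 93.2 and 136 in GFP growth libraries. Cdc45, which joins Mcm2 to Mcm7 and GINS in the active helicase, had 96.3 and 83.5 normalized counts in THOC5 osteogenic, 146 and 114 in GFP osteogenic, 66.6 and 91.7 in THOC5 growth and 71.1 and 93.1 in GFP growth libraries. In each the GFP osteogenic pair lay above the other 6 libraries, by log2 0.64 ± 0.19 (limma adjusted p = 0.0337) and 0.66 ± 0.21 (adjusted p = 0.0443) against GFP growth. Gins2 had 155 and 157 normalized counts in THOC5 osteogenic, 163 and 169 in GFP osteogenic, 117 and 142 in THOC5 growth and 108 and 139.6 in GFP growth libraries, and Gins1 39.1 and 27.2 normalized counts in THOC5 osteogenic, 44.1 and 41.1 in GFP osteogenic, 22.2 and 29.6 in THOC5 growth and 19.8 and 37.2 in GFP growth libraries. Both osteogenic Gins2 libraries exceeded both growth libraries in each kind of cell, but exons on the other strand, of Gse1, cover 67.3% of the exon bases of Gins2 and the kit does not mark strand. For Gse1 itself the value was log2 -0.16 ± 0.11 in GFP cells (limma adjusted p = 0.359).

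Pcna, the ring that holds polymerases on DNA, had 423 and 380.2 normalized counts in THOC5 osteogenic, 739 and 614 in GFP osteogenic, 325 and 411 in THOC5 growth and 322 and 428 in GFP growth libraries. Again the GFP osteogenic libraries were the highest, and the THOC5 osteogenic libraries lay within the range of the 4 growth libraries. Pcna rose 1.81-fold in GFP cells (log2 0.86 ± 0.16, limma adjusted p = 0.00256), while its change in THOC5 cells was 0.13 ± 0.16 (adjusted p = 0.949). Among the loader subunits that open this ring, Rfc3 had 106 and 104 normalized counts in THOC5 osteogenic, 125 and 135 in GFP osteogenic, 99.4 and 98.4 in THOC5 growth and 65.3 and 98.4 in GFP growth libraries. It rose by log2 0.69 ± 0.19 in GFP cells (adjusted p = 0.0226), where GFP growth replicate 1 was the lowest library. Rfc4 had 75.4 and 73.2 normalized counts in THOC5 osteogenic, 97.7 and 90.3 in GFP osteogenic, 68.5 and 86.9 in THOC5 growth and 78.1 and 61.1 in GFP growth libraries, and Rfc5 109 and 105 normalized counts in THOC5 osteogenic, 98.6 and 105 in GFP osteogenic, 79.2 and 109.8 in THOC5 growth and 96.7 and 116 in GFP growth libraries. Neither passed (adjusted p = 0.128 and 0.874), and for Rfc5 the osteogenic and growth pairs overlapped in both kinds of cell.

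Of 7 members that prime, extend, process or protect DNA, Prim1 alone passed in GFP cells. Prim1, the catalytic primase subunit, had 221 and 184 normalized counts in THOC5 osteogenic, 279 and 264 in GFP osteogenic, 165 and 202 in THOC5 growth and 182 and 189 in GFP growth libraries. The GFP osteogenic pair was above the others, by log2 0.55 ± 0.14 against GFP growth (limma adjusted p = 0.0141). Pola1, the polymerase that works with primase, had 194 and 191 normalized counts in THOC5 osteogenic, 228 and 233 in GFP osteogenic, 174 and 201 in THOC5 growth and 182 and 226 in GFP growth libraries. Its change in GFP cells was 0.18 ± 0.13 (adjusted p = 0.385), and Pole, Pold1 and the single-strand binding subunit Rpa2 stood at 0.25, 0.10 and 0.48 without passing. Lig1, which seals Okazaki fragments, had 395 and 396 normalized counts in THOC5 osteogenic, 322 and 322 in GFP osteogenic, 311 and 416 in THOC5 growth and 343 and 441 in GFP growth libraries. It stood the other way round, with the GFP osteogenic pair below the GFP growth pair, at log2 -0.27 ± 0.15 (adjusted p = 0.238). Fen1, the flap endonuclease, had 9.09 and 8.45 normalized counts in THOC5 osteogenic, 16.4 and 12.5 in GFP osteogenic, 13.5 and 14.3 in THOC5 growth and 8.16 and 12.0 in GFP growth libraries. Of the members it had the lowest level per kb, and 78.8% of its exon bases are covered on the other strand by Gm10143, so the reads cannot be assigned.

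The members that supply deoxynucleotides gave no call. Of Tk1, Rrm2, Rrm1 and Tyms, 0 passed in GFP cells (limma, with 0 at an unadjusted p under 0.05 and 0 by edgeR), and their median log2 change was 0.00. Tk1, thymidine kinase, had 338 and 298 normalized counts in THOC5 osteogenic, 239.6 and 209 in GFP osteogenic, 206 and 326 in THOC5 growth and 229.6 and 306 in GFP growth libraries. Rrm2, the ribonucleotide reductase subunit that accumulates in S phase, had 363 and 316 normalized counts in THOC5 osteogenic, 452 and 427 in GFP osteogenic, 254 and 372 in THOC5 growth and 249 and 411 in GFP growth libraries. Its GFP osteogenic pair was above the GFP growth pair, by log2 0.46 ± 0.22 (adjusted p = 0.175), with growth replicates far apart. Rrm1, the large reductase subunit, had 1584 and 1519.7 normalized counts in THOC5 osteogenic, 1303 and 1421 in GFP osteogenic, 1217 and 1482 in THOC5 growth and 1285 and 1563 in GFP growth libraries, and Tyms, thymidylate synthase, 633 and 585 normalized counts in THOC5 osteogenic, 709 and 626 in GFP osteogenic, 616 and 684 in THOC5 growth and 561 and 723 in GFP growth libraries. Their changes in GFP cells were -0.06 ± 0.12 (limma adjusted p = 0.783) and 0.07 ± 0.12 (adjusted p = 0.774), with overlapping pairs.

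The E cyclins, which bind Cdk2 at the entry to S phase, included the member with the largest log2 change in GFP cells, Ccne2. Ccne1 had 75.4 and 67.6 normalized counts in THOC5 osteogenic, 161 and 142 in GFP osteogenic, 74.3 and 104 in THOC5 growth and 74.6 and 99.7 in GFP growth libraries. The 2 GFP osteogenic libraries were far above the other 6, and the THOC5 osteogenic pair lay at or below the lower end of the growth libraries. Ccne1 rose 1.75-fold in GFP cells (log2 0.80 ± 0.20, limma adjusted p = 0.0153), against a change of -0.30 ± 0.20 in THOC5 cells (adjusted p = 0.928). The difference between these responses was -1.10 ± 0.28 and passed the test of the interaction (limma adjusted p = 0.0353). Ccne2 had 72.7 and 45.1 normalized counts in THOC5 osteogenic, 118 and 116 in GFP osteogenic, 57.9 and 70.7 in THOC5 growth and 31.5 and 73.1 in GFP growth libraries. Its rise in GFP cells was 2.41-fold (log2 1.27 ± 0.34, adjusted p = 0.0211), with 1 low GFP growth library, and its interaction did not pass (-1.43 ± 0.48, adjusted p = 0.0926). Exons of Ints8 on the other strand cover 17.4% of Ccne2, and Ints8 stood at log2 0.14 ± 0.09 in GFP cells (limma adjusted p = 0.342). Cdk2, their kinase, had 312 and 279.7 normalized counts in THOC5 osteogenic, 317 and 334 in GFP osteogenic, 256 and 312 in THOC5 growth and 248 and 282 in GFP growth libraries, and its log2 value was 0.30 ± 0.12 in GFP cells (adjusted p = 0.12).

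**Figure D2:**
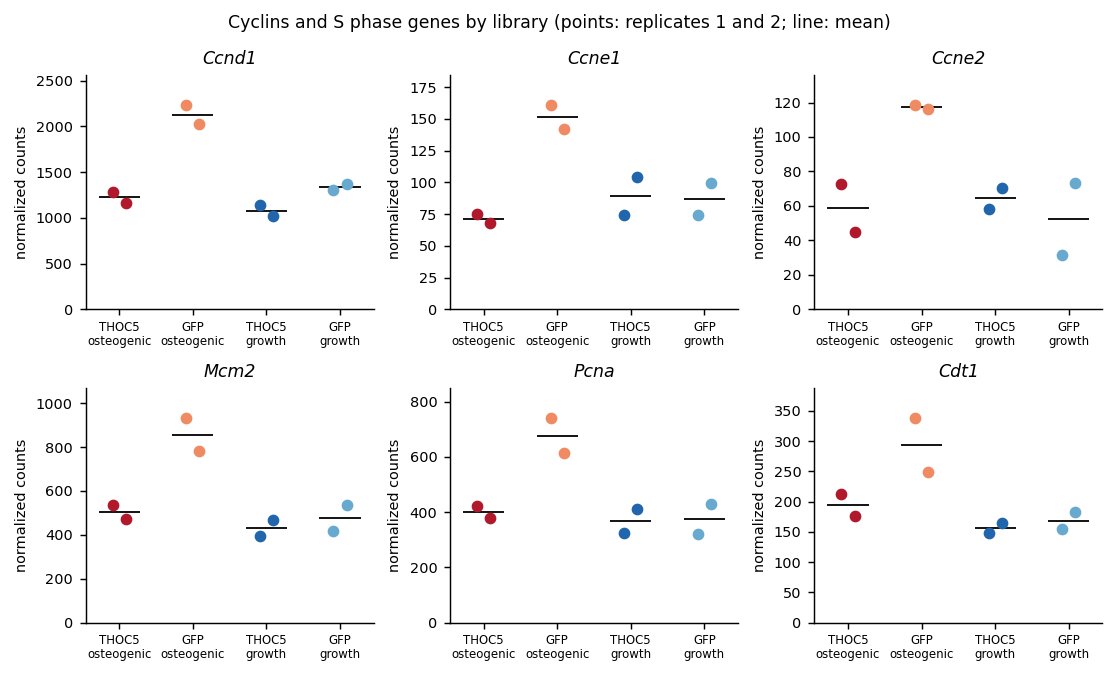
Normalized counts of 6 genes in each library (points, replicates 1 and 2) with the group mean (line), for THOC5 osteogenic, GFP osteogenic, THOC5 growth and GFP growth. For Ccnd1 the GFP osteogenic libraries stand at 2232 and 2022, above the other 6, which lie between 1024 and 1373.

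Ccnd1, the D cyclin induced by mitogens, had 1287 and 1165 normalized counts in THOC5 osteogenic, 2232 and 2022 in GFP osteogenic, 1135 and 1024 in THOC5 growth and 1309 and 1373 in GFP growth libraries. GFP osteogenic libraries were the highest, and THOC5 growth libraries were below GFP growth libraries. It rose 1.58-fold in GFP cells (log2 0.66 ± 0.09, limma adjusted p = 0.000501) and kept that call in each of the 15 alternatives. In THOC5 cells the change was 0.18 ± 0.09 (adjusted p = 0.882), and the interaction was -0.48 ± 0.13 (limma adjusted p = 0.0422). Exons of LTO1 on the other strand cover 23.4% of Ccnd1, and LTO1 stood at log2 0.29 ± 0.13 in GFP cells (adjusted p = 0.149). The other D cyclins did not pass. Ccnd2 lay between 8755 and 11249.9 normalized counts over the 8 libraries, and Ccnd3 had 797 and 849 normalized counts in THOC5 osteogenic, 739 and 668 in GFP osteogenic, 639 and 749.7 in THOC5 growth and 741 and 702 in GFP growth libraries. Their changes in GFP cells were -0.14 ± 0.11 (adjusted p = 0.444) and -0.04 ± 0.10 (adjusted p = 0.847). Cdk4, a kinase partner of D cyclins, had 2409.9 and 2578 normalized counts in THOC5 osteogenic, 2099 and 1978 in GFP osteogenic, 2425 and 2500.2 in THOC5 growth and 2272 and 2381 in GFP growth libraries, and Cdk6, the other partner, 261 and 271 normalized counts in THOC5 osteogenic, 346 and 342 in GFP osteogenic, 333 and 238 in THOC5 growth and 289 and 300.4 in GFP growth libraries. In GFP cells neither passed, with -0.19 ± 0.08 for Cdk4 (adjusted p = 0.118) and 0.22 ± 0.14 for Cdk6 (adjusted p = 0.316).

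Per kb of exon in GENCODE M21 on GRCm38, the members covered a wide range of levels. The D cyclin Ccnd2 had the highest mean over 8 libraries, at 1006 normalized counts per kb, then Cdk4 at 717, Ccnd1 at 307, Mcm6 at 266 and Pcna at 189.7. E2f2 and Fen1 were lowest, at 4.95 and 4.87 per kb. Of the 41 genes, 18 share exon bases with a gene on the other strand, whose reads this kit does not separate. Among the D cyclins, Ccnd2 thus had the highest level, and Ccnd1 was the one that passed the test in GFP cells.

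E2f1, an activating E2F factor that is also a target of E2F, had 286 and 303 normalized counts in THOC5 osteogenic, 399.6 and 342 in GFP osteogenic, 240.4 and 255 in THOC5 growth and 291 and 276 in GFP growth libraries. It rose by log2 0.38 ± 0.11 in GFP cells (limma adjusted p = 0.0302), and in both kinds of cell its osteogenic pair was above its growth pair. E2f2, a further activator, had 27.3 and 19.7 normalized counts in THOC5 osteogenic, 25.9 and 40.2 in GFP osteogenic, 14.5 and 24.8 in THOC5 growth and 21.0 and 19.9 in GFP growth libraries. Rbl1, the pocket protein p107, had 341 and 269 normalized counts in THOC5 osteogenic, 376 and 407 in GFP osteogenic, 289 and 315 in THOC5 growth and 324 and 332 in GFP growth libraries. Uhrf1, which brings maintenance methylation to replicated DNA, had 552 and 490.0 normalized counts in THOC5 osteogenic, 530.2 and 449 in GFP osteogenic, 345 and 553 in THOC5 growth and 339 and 589 in GFP growth libraries. The changes in GFP cells were 0.64 ± 0.35 for E2f2, 0.25 ± 0.12 for Rbl1 and 0.13 ± 0.25 for Uhrf1 (limma adjusted p = 0.241, 0.179 and 0.781). For Uhrf1, replicate 2 in growth medium was as high as the osteogenic libraries, or higher, in both kinds of cell.

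In THOC5 cells, 0 of the 41 members passed in either direction (limma). At an unadjusted p under 0.05 there were 2, and edgeR and DESeq2 each called 0. The authors' deposited table also calls 0, against 0.977% and 0.126% of its genes. Of the 41 log2 changes, 32 were above 0, with a range of -0.61 for Fen1 to 0.49 for Mcm5. The SE of a member's change was between 0.08 and 0.38, with a median of 0.16, which is close to the median change of 0.18. Mcm2 at 0.23 ± 0.14, Cdt1 at 0.30 ± 0.16 and E2f1 at 0.25 ± 0.11 had osteogenic libraries above the growth libraries in THOC5 cells as in GFP cells, at lower fitted values. A miss of the threshold does not show that these genes were unaltered.

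In growth medium, THOC5 against GFP cells gave 0 calls among the members, and of all genes tested 1 rose, Thoc5 itself (0.00443%), and 0% fell. Unadjusted, 1 member had p under 0.05, and edgeR, DESeq2 and the authors' deposited table each called 0. The median log2 difference was -0.06, and its sign rested on single libraries: it was 0.13 without THOC5 growth replicate 1, 0.12 without GFP growth replicate 2, -0.20 without THOC5 growth replicate 2 and -0.23 without GFP growth replicate 1. Ccnd1 had the lowest value, at -0.31 ± 0.09 (limma adjusted p = 0.906), with both THOC5 libraries below both GFP libraries.

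In osteogenic medium, 10 members were lower and 1 higher in THOC5 than in GFP cells (limma). That is 24.4% of the 41 fallen and 2.44% risen, beside the 10.7% and 11.3% of all genes, and the median was -0.33 against 0. The fallen genes were Mcm2, Mcm3, Mcm7, Cdt1 and Orc6 of helicase loading, Mcm10, Pcna, Prim1, Ccne1 and Ccnd1. By library, 28 of the 41 had both THOC5 libraries below both GFP libraries and 7 above, against 28.6% and 30.8% of all genes. edgeR called 15 fallen and 1 risen (36.6% and 2.44%, against 12.5% and 11.5% of all genes). DESeq2 called 9 fallen and 1 risen (22% and 2.44%, against 8.91% and 9.79% of all genes). The authors' deposited table has 9 fallen and 1 risen, against 14.2% and 15.6% of its genes, and 8 of those 9 were among the 10. Under scaling by library totals, which moved the median of all genes by -0.16 (log2), 16 fell and 0 rose. Over all genes that scaling gave 1662 risen and 4066 fallen, in place of 2550 and 2413.

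Ccnd1 had 1287 and 1165 normalized counts in THOC5 osteogenic libraries, against 2232 and 2022 in GFP osteogenic libraries. It was 1.73-fold lower (log2 -0.79 ± 0.09, limma adjusted p = 0.000143), and this call stood in each of the 15 alternatives. Ccne1 had 75.4 and 67.6 normalized counts in THOC5 osteogenic libraries, against 161 and 142 in GFP osteogenic libraries. It was 2.10-fold lower (log2 -1.07 ± 0.20, adjusted p = 0.00295), and Ccne2 stood at -1.02 ± 0.34 without passing (adjusted p = 0.0526). Both cyclins had no overlap between the groups. Among S phase genes, Mcm2 was lower by 1.70-fold (log2 -0.76 ± 0.14, adjusted p = 0.00249) and Pcna by 1.68-fold (log2 -0.75 ± 0.16, adjusted p = 0.00539). Cdk4 had 2409.9 and 2578 normalized counts in THOC5 osteogenic libraries, against 2099 and 1978 in GFP osteogenic libraries, which is the opposite order. It was 1.22-fold higher (log2 0.29 ± 0.08, adjusted p = 0.0219), a call that was lost under scaling by library totals (adjusted p = 0.369), and exons of Tspan31 on the other strand cover 19.7% of it.

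Leaving out 1 library changed these calls too. Without THOC5 osteogenic replicate 2, Ccnd1 alone passed, and the other 10 had adjusted p between 0.0548 and 0.309. That is 2.44% of the 41 fallen, against 3.64% of all genes. Without GFP osteogenic replicate 1, Ccnd1 and Cdk4 passed, and the other 9 had adjusted p between 0.0594 and 0.246, so that again 2.44% of the 41 fell, against 4.28% of all genes. In neither fit was the fallen share of the members above that of all genes. Without THOC5 osteogenic replicate 1, Mcm3, Mcm7, Mcm10, Cdt1, Prim1 and Cdk4 were lost (adjusted p between 0.0588 and 0.221), and without GFP osteogenic replicate 2, Mcm7, Mcm10, Prim1 and Cdk4 (between 0.0502 and 0.117). Without either GFP growth replicate, Cdt1 and Prim1 were lost, with adjusted p between 0.0653 and 0.0876.

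The test of whether THOC5 and GFP cells differed in their response to the medium passed for Ccne1 and Ccnd1 (limma interaction), both with a negative interaction, which is 4.88% of the 41, against 3.92% of all genes with a negative and 5.3% with a positive one. At an unadjusted p under 0.05 there were 7, and edgeR called 6 and DESeq2 4, each negative. Scaling by library totals called 5, each negative, and over all genes 886 positive and 1382 negative in place of 1197 and 885. Ccnd1 was lost without THOC5 growth replicate 1 (adjusted p = 0.152), Ccne1 without THOC5 growth replicate 2 (adjusted p = 0.113), and both without any 1 of the other 6 libraries (adjusted p between 0.0501 and 0.204). The median over the members was -0.25, and -0.09 without THOC5 growth replicate 2, -0.14 without GFP growth replicate 1 and -0.16 without THOC5 osteogenic replicate 2. In the main limma fit the share called was close to that of all genes. The negative share was 14.6% of the members by edgeR (5.11% of all genes) and 9.76% by DESeq2 (3.45%). Library totals gave 12.2%, against 6.12% of all genes. Genes to which DESeq2 gave no adjusted p count as not called here, so its share of all genes may be understated. For the other 39 members, the limma calls in GFP cells without calls in THOC5 cells do not show a difference between the kinds of cell.

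**Figure D3:**
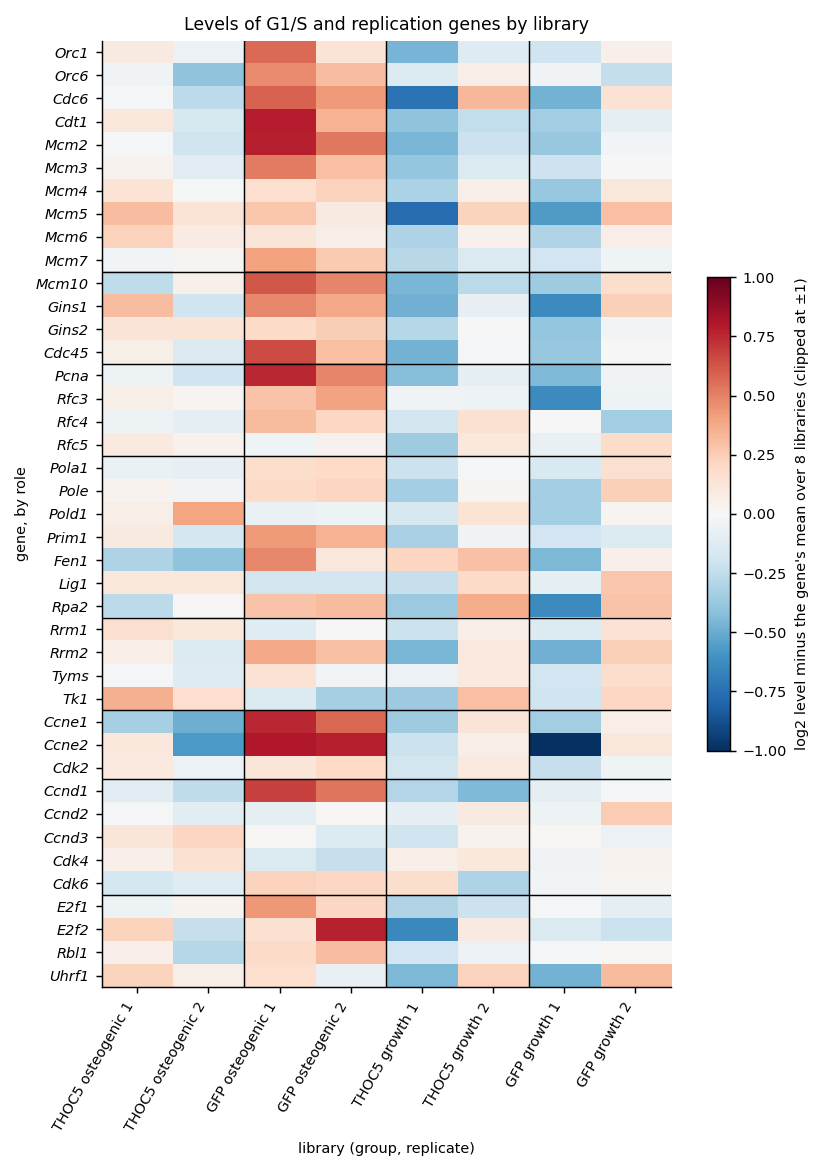
Log2 level of each of the 41 genes (rows, by role) in each of the 8 libraries (columns), minus the gene's mean over the libraries and clipped at 1 either way. The member median is 0.29 and 0.23 in the GFP osteogenic libraries, and -0.31 and -0.23 in replicate 1 of THOC5 growth and GFP growth.

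The 2 growth replicates differed for these genes within each kind of cell. The median member level, as log2 distance from the gene's mean, was 0.05 and -0.09 in THOC5 osteogenic, 0.29 and 0.23 in GFP osteogenic, -0.31 and 0.06 in THOC5 growth and -0.23 and 0.05 in GFP growth libraries. Replicate 2 was higher for 38 of 41 members in THOC5 growth (92.7%, against 44.6% of all genes) and for 36 of 41 in GFP growth (87.8%, against 49.6%). Both held for 33 of the 41 members, and 0 were lower in replicate 2 of both. Of all 22575 genes tested, 5546 were higher and 6141 lower in replicate 2 of both. In osteogenic medium, replicate 2 was higher for 10 of 41 members in THOC5 cells (24.4%, against 49.8% of all genes). In GFP cells it was higher for 14 of 41 (34.1%, against 51%), so the order was the opposite in osteogenic medium. Across the 41 genes, the replicate differences in the 2 kinds of growth library had a Pearson r of 0.44, against 0.05 across all 22575 genes, as a description of genes that share libraries. The labels name no batch, and what set the replicates apart was not tested. The median change of the members in GFP cells was 0.23 without GFP growth replicate 1 and 0.55 without GFP growth replicate 2, against 0.43 with both.

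**Figure D4:**
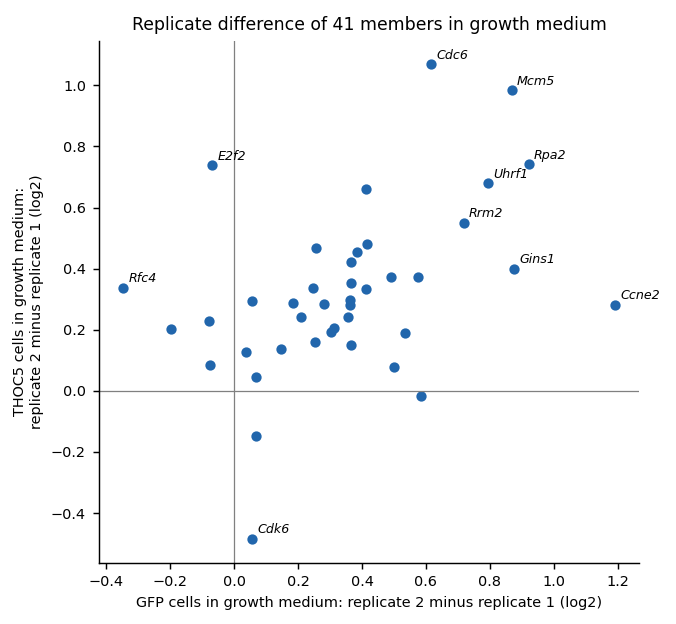
Replicate 2 minus replicate 1 in growth medium (log2) for each of the 41 genes, in THOC5 cells (y axis) and GFP cells (x axis). Of these, 33 lie above and right of the zero lines, higher in replicate 2 of both, and 0 lie below and left of them. Over all 22575 genes tested (not drawn), 5546 were higher and 6141 lower in replicate 2 of both.

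Other genes of the pathway, from lists of textbook members also chosen with earlier results known, were read beside the 41. Of 38 further replication genes, 9 rose and 0 fell in GFP cells (23.7% risen, against 10.3% of all genes, of which 10.6% fell), with a median log2 change of 0.17. They included the origin recognition subunits Orc4 (703 and 707 normalized counts in GFP osteogenic libraries, against 392 and 346 in GFP growth libraries, log2 0.94 ± 0.12, limma adjusted p = 0.000274) and Orc2 (534 and 480.3 normalized counts in GFP osteogenic libraries, against 296 and 263 in GFP growth libraries, 0.86 ± 0.12, adjusted p = 0.000424). Tipin, a part of the fork protection complex, rose by 0.79 ± 0.13 (adjusted p = 0.00126). In nucleotide supply, 9 of 15 rose and 2 fell (60% and 13.3%, beside the same 10.3% and 10.6%). Nme1, a nucleoside diphosphate kinase, rose by 0.84 ± 0.14 and Shmt1, a folate enzyme, by 0.78 ± 0.15 (adjusted p = 0.00188 and 0.00363), while Ctps, CTP synthase, fell (log2 -1.10 ± 0.11, adjusted p = 5.09e-05), as did Samhd1, which degrades deoxynucleotides. In chromatin assembly 7 of 13 rose (53.8%) and 0 fell, among them Ssrp1 of the histone chaperone FACT (0.51 ± 0.08, adjusted p = 0.00149), the histone chaperones Asf1a (0.80 ± 0.17, adjusted p = 0.00563) and Nasp (0.60 ± 0.14, adjusted p = 0.00936).

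Regulators were mixed. Of 21 further genes of the RB, E2F and G1 kinase system, 9 rose in GFP cells and 2, Rbl2 (p130) and Ccna2, fell (42.9% and 9.52%, beside 10.3% and 10.6% of all genes). Lin54 and Lin9, subunits of the core of the DREAM complex, which represses cell cycle genes in quiescence, rose by 0.84 ± 0.12 and 0.80 ± 0.16, and E2f6, a repressor E2F, by 0.75 ± 0.13 (limma adjusted p = 0.000668, 0.0046 and 0.00217). The retinoblastoma gene Rb1 did not pass there (0.15 ± 0.12, adjusted p = 0.472). Of the CDK inhibitors, Cdkn1a, which encodes p21, had 3259.6 and 3046 normalized counts in THOC5 osteogenic, 4835 and 4150.2 in GFP osteogenic, 2479 and 2802 in THOC5 growth and 2895 and 3097 in GFP growth libraries. It rose in GFP cells, as did Ccnd1 and Ccne1 (log2 0.58 ± 0.10, adjusted p = 0.00175). Cdkn2c and Cdkn1b, which encode p18 and p27, fell (log2 -1.10 ± 0.15 and -0.61 ± 0.13, adjusted p = 0.000531 and 0.00632), and with Cdkn1c 3 of the 7 inhibitors fell and 1 rose (42.9% and 14.3%). With GFP osteogenic replicate 1 or GFP growth replicate 2 left out 1 fell, and without GFP growth replicate 1, 0 rose.

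Of 13 markers of mitosis and proliferation, 0 rose and 7 fell in GFP cells (53.8% fallen, against 10.6% of all genes), with a median of -0.62. Without GFP osteogenic replicate 1 or GFP growth replicate 2, 1 of the 13 fell. Mki67, which marks cycling cells, had 1419 and 1372 normalized counts in THOC5 osteogenic, 716 and 847 in GFP osteogenic, 1249 and 1653 in THOC5 growth and 1277 and 1849 in GFP growth libraries. The GFP osteogenic pair was the lowest of the 4 (log2 -0.98 ± 0.17 against GFP growth, limma adjusted p = 0.0019). Ccnb2, a mitotic cyclin, and Cenpe, a kinetochore motor, fell too (log2 -0.85 ± 0.12 and -0.77 ± 0.14, adjusted p = 0.000522 and 0.0031). Ccna2, the cyclin of S and G2 phase, had log2 -0.81 ± 0.20 (adjusted p = 0.0131) and is one of the 2 fallen regulators. Under scaling by library totals 4 of the 13 fell and 0 rose, with a median of -0.48, where 7.48% of all genes fell and 16.5% rose.

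In THOC5 cells, 0 genes of these 6 further lists passed (limma, with 0 to 3 per list at an unadjusted p under 0.05). In osteogenic medium THOC5 cells had 9 further replication genes lower and 0 higher than GFP cells, and 7 mitotic genes higher and 0 lower. The mitotic counts were 4 and 0 under scaling by library totals, where 7.36% of all genes were higher and 18% lower. Among the other lists, 9 nucleotide supply genes were lower and 2 higher, 9 RB and E2F regulators lower and 1 higher, 1 CDK inhibitor lower and 3 higher, and 5 chromatin assembly genes lower and 0 higher, where 10.7% of all genes were lower and 11.3% higher. Mki67 was higher by 0.84 ± 0.17 (limma adjusted p = 0.00437), Cdkn1a lower at -0.51 ± 0.10 (adjusted p = 0.00362) and Rb1 lower at -0.49 ± 0.12 (adjusted p = 0.0158). These counts again share the GFP osteogenic libraries with the GFP response. With 1 library left out, fewer of all genes passed too, in the GFP response and between the cells in osteogenic medium. List counts from such fits, here and above, therefore cannot be set beside the shares of all genes from the full fit. By themselves these counts show neither that a list kept its pattern nor that it lost it. With GFP osteogenic replicate 1 or 2, or GFP growth replicate 1 or 2, left out in turn, the risen genes in GFP cells numbered 4, 4, 4 and 5 in further replication, 1, 9, 2 and 4 in nucleotide supply, 3, 5, 3 and 3 among RB and E2F regulators, and 1, 2, 2 and 2 in chromatin assembly. Without either THOC5 osteogenic replicate, 5 of the RB and E2F regulators rose. The fallen mitotic genes numbered 1, 4, 5 and 1, and were 4 without either THOC5 osteogenic replicate. Without THOC5 osteogenic replicate 1 or 2, or GFP osteogenic replicate 1 or 2, the further replication genes lower in THOC5 osteogenic cells numbered 7, 2, 3 and 7, and the mitotic genes higher there 1, 1, 1 and 3.

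**Figure D5:**
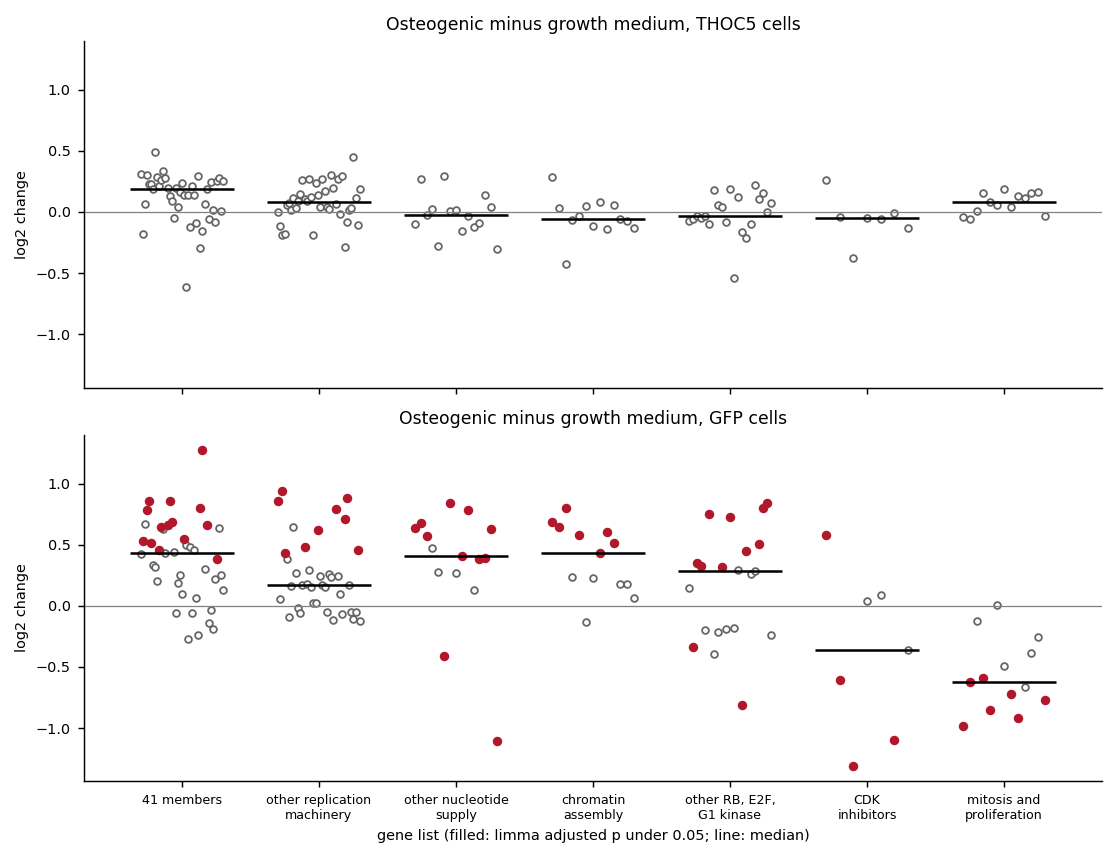
Log2 change in osteogenic against growth medium of each gene (points) of the 41 members and the 6 further lists, in THOC5 cells (upper) and GFP cells (lower), with the list median (line). Filled points passed limma at an adjusted p under 0.05: 14 members rose and 7 mitotic genes fell in GFP cells, and 0 are filled in THOC5 cells.

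Levels of cell type markers also differed between these libraries. The summed level of 7 smooth muscle genes was 26226 and 28537 in THOC5 osteogenic, 13027 and 14862 in GFP osteogenic, 32477 and 32496 in THOC5 growth and 29915 and 25630.3 in GFP growth libraries. For 6 fibroblast genes the sums were 18705 and 19764 in THOC5 osteogenic, 6637 and 9182 in GFP osteogenic, 21169 and 20317 in THOC5 growth and 19085 and 16667 in GFP growth libraries. Both sums were lowest in the GFP osteogenic libraries. Of the 41 members, 25 had both GFP osteogenic libraries above the other 6 (61%, against 18.9% of all genes), and 16 did not, Lig1, Tk1, Rrm1, Mcm5 and Mcm6 among them. The 6 macrophage genes summed to 961 to 1139 in THOC5 osteogenic, 679 to 694 in GFP osteogenic, 1051 to 1230.0 in THOC5 growth and 946 to 1182 in GFP growth libraries. The 4 endothelial genes analysed summed to 87.2 and 83.5 in THOC5 osteogenic and 55.4 and 36.7 in GFP osteogenic libraries. Their sums were 121 and 90.7 in THOC5 growth and 117 and 75.8 in GFP growth libraries. The macrophage and endothelial sums were thus also lowest in the GFP osteogenic libraries. Sums follow the most abundant genes, and single markers went both ways between the media in GFP cells. The log2 change was above 0 for 1 and below 0 for 6 smooth muscle genes, and for 1 and 5 fibroblast genes. It was above 0 for 1 and below 0 for 4 macrophage genes, and for 2 and 2 endothelial genes (median 0.52). The part of these shifts in the G1/S results was not tested.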

How the data were processed

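The 8 libraries of polyadenylated RNA were prepared with TruSeq V2, per the labels' protocols, a kit without strand information. The deposited table holds a signal per gene and library, namely the reads of the gene over the library's size factor, which the values themselves show. Multiplied back, 100% of values were whole reads (tolerance 1e-06), with 0 sample columns unused. The authors' log2 fold changes and adjusted p-values for 4 comparisons are deposited beside it, per the file headers. FastQC, Bowtie2, MACS2, SAMtools and mm10 are named in the submitters' processing notes, and the counting tool is not given in the sources used.

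limma 3.58.1 (R 4.3.3) with its trend option was fitted to log2(normalized count + 1) of the 22575 genes that reached 1 in 2 or more libraries. The 4 groups of all 8 libraries were fitted together without a block (4 residual degrees of freedom), and p-values were adjusted by Benjamini-Hochberg over all genes of a comparison, with 0.05 as the threshold. Changes on this scale understate those of low genes. edgeR 4.0.16 and DESeq2 1.42.0 on the recovered reads, pseudocount 0.5, no filter, library totals, a replicate block, only the 4 libraries compared and each library left out were the alternatives. In GFP cells edgeR called 4840 genes, DESeq2 3836 and limma 4698. Shares of all genes by DESeq2 count those without an adjusted p as not called. The scripts were tested on simulated data.

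The members and lists were chosen with earlier results of these data known. Values by library are given for up to 4 members a role with the smallest p over the 5 comparisons, and up to 3 genes of each further list are named by p in GFP cells. Mcm5, Rbl2, Ccna2, Samhd1 and Cdkn1c were named after their values were seen.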

Additional observations from a re-analysis of the deposited data

Results flagged for a closer look

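The change from growth to osteogenic medium differed between THOC5 and GFP cells for 2 of the 41 genes by the limma test of the interaction, both negative, which is 4.88% of the members, close to the 3.92% of all genes with a negative and 5.3% with a positive interaction. For Ccne1, the response in THOC5 cells minus that in GFP cells was -1.10 ± 0.28 SE on the log2 scale (adjusted p = 0.0353), with responses of -0.30 in THOC5 cells and 0.80 in GFP cells. For Ccnd1 it was -0.48 ± 0.13 (adjusted p = 0.0422), with 0.18 in THOC5 cells and 0.66 in GFP cells. Each call was lost in 8 of 14 alternatives, with an adjusted p of up to 0.178 for Ccne1 and up to 0.204 for Ccnd1. edgeR and DESeq2 both kept the 2 calls. Their shares of members with a negative interaction were higher, at 14.6% and 9.76%, against 5.11% and 3.45% of all genes. For DESeq2, genes without an adjusted p count as not called, so its 3.45% may be understated.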

How the results depend on the processing

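In GFP cells 14 members were called, and 9 with no filter, 4 in a fit of only the 4 libraries compared, and 2 to 13 with 1 library left out, each among the 14. For THOC5 against GFP cells in osteogenic medium 11 were called, and the totals were 7, 6 and 1 to 13, not always of the same genes: of the 6, 4 were among the 11 (Cdk6 and Lig1 were added), and the 13 held all 11 with Cdk6 and Tk1. For the interaction 2 were called. No filter gave 0 and leaving out 1 library 0 to 1, while library totals gave 5, edgeR 6 and DESeq2 4, which held both with Mcm2 and Pcna added in all of these, Orc6 in library totals and edgeR, and Ccne2 in edgeR. In THOC5 cells, and in growth medium, 0 members passed under each alternative. Over all genes, the 4698 called in GFP cells became 2293 in the fit of only the 4 libraries and 2067 to 4496 with 1 left out, and the 4963 in osteogenic medium became 3030 and 1987 to 4753. The 122 called in THOC5 cells became 37 with no filter, 0 in the fit of only the 4 libraries and 8 to 106 with 1 left out, and the 1 in growth medium became 0, 0 and 0 to 1. The 2082 of the interaction became 1122 with no filter and 0 to 1751 with 1 left out. The causes were not tested, beside the fewer samples or other genes of each fit. None of the member changes that passed reversed its sign.

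With the replicate number as a block, 14 members were called in GFP cells, 10 in osteogenic medium (Prim1 was lost, adjusted p = 0.0504) and 3 for the interaction (Orc6 was added). Over all genes the block gave 4723, 123, 1, 4948 and 2238 calls in the 5 comparisons. Same-numbered libraries had correlations of -0.02 to 0.05 over all genes, and for the 41 members of 0.44 between the growth groups and -0.21 to 0.07 between the other pairs of groups. The numbers were not taken to pair the samples, as no label says that they do. Such correlations leave out a shift common to the members, of which 33 were higher in replicate 2 of both growth groups. The block holds 1 replicate term for both media, while replicate 2 was higher for only 10 and 14 members in the osteogenic groups. Whether the numbers mark pairs within a medium was therefore not tested. At 2 libraries a group, changes near the median SE of 0.16 could not be told from 0.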

Other observations

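Of all genes, 3.92% passed the test of the interaction with a negative and 5.3% with a positive value (limma). In the further lists it passed for 5 of 38 replication genes (13.2%), each with a lower response in THOC5 than in GFP cells. They were Orc2 at -0.86 (adjusted p = 0.00921), Orc4 at -1.13 (adjusted p = 0.00262), Orc5 at -0.61 (adjusted p = 0.0466), Tipin at -0.73 (adjusted p = 0.0292) and Mtbp (adjusted p = 0.0274), named after their values were seen. Orc2, Orc4 and Orc5 are subunits of the origin recognition complex, of which Orc1 and Orc6 are among the 41 members and did not pass this test (adjusted p = 0.871 and 0.059). With 1 library left out, 0 to 4 of the further replication genes passed. Among 13 mitotic genes, 3 passed (23.1%, against 5.3% of all genes with a positive interaction), each with a higher response in THOC5 cells. Fewer of the mitotic genes passed with 1 library left out. Nucleotide supply had 3 negative and 2 positive interactions that passed, of 15 genes. RB and E2F regulators had 3 negative of 21, chromatin assembly 3 negative of 13 and CDK inhibitors 1 positive of 7. No list kept its calls in every fit with 1 library left out. The 41 members held between 0.226% and 0.326% of the reads of a library.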
